A study of Mus musculus with 12 samples.

Results

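The transcripts described here are those of 10 genes of the NF-κB pathway. Among them are the subunit genes *Rela*, *Nfkb1*, *Nfkb2* and *Relb* and the IκB family genes *Nfkbia* and *Nfkbiz*. The others are the feedback genes *Tnfaip3* and *Tnip1* and the receptor-proximal genes *Traf2* and *Birc3*. All 10 were chosen by gene symbol, with earlier results of these data known. Each matched 1 of the 52962 gene identifiers in the count table. RNA sequencing had been performed on islet cells from female mice of the NOD strain, which is prone to autoimmune diabetes. The 12 samples formed 4 groups of 3 replicates: a β-cell and a non-β-cell fraction, each taken from mice aged 4 weeks and from mice aged 8 weeks. All groups were of the same strain and sex, and the study's methods describe the same handling for all. Whether the ages were prepared, sorted or sequenced together is not stated there or in the sample labels. Per the study's methods, islets were kept in culture overnight, dispersed with trypsin, depleted of CD45-positive cells and sorted by autofluorescence, so the non-β fraction is a mixture of cell types. The study describes each replicate as a pool of 3 mice, which the sample labels do not state.

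NF-κB is a family of dimeric transcription factors that inhibitors of the IκB class hold in the cytoplasm until receptors for cytokines such as interleukin-1 and tumour necrosis factor trigger IκB degradation. In the canonical branch p65 (*Rela*) acts with p50 (*Nfkb1*), and in the non-canonical branch RelB acts with p52, which is cut from the p100 product of *Nfkb2*. Many of the pathway's own brakes are induced by it, among them IκBα (*Nfkbia*) and A20 (*Tnfaip3*), and in islets the pathway is known for its response to inflammatory cytokines. RNA levels report neither protein processing nor entry into the nucleus, and neither was measured here.

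Promoter sequence is shown because several members are textbook targets of the pathway. The members with a match did not all move alike in the data described below. The RefSeq promoter table (GRCm38.p6) held 7 of the 10 members, and 4 of these had a match to the NF-κB consensus, named the κB site, on either strand in the 250 bases before an annotated start. By comparison, 8.2% of all 27025 genes in the table had a match in at least 1 window, as did 7.3% of the 32851 windows of that length, with overlapping matches counted. A match is a description of letters, and binding was not measured. In the 30-base stretches below, written along the strand of the gene, capitals mark the matched bases.
Nfkbia, chr12:55492657-55492686 (minus strand): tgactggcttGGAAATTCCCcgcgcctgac
Tnfaip3, chr10:19015516-19015545 (minus strand): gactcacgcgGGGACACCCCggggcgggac
Tnfaip3, chr10:19015411-19015440 (minus strand): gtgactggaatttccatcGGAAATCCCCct
Tnip1, chr11:54962978-54963007 (minus strand): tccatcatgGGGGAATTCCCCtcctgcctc
Nfkb2, chr19:46304688-46304717 (plus strand): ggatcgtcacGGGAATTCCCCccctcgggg
Nfkb2, chr19:46304707-46304736 (plus strand): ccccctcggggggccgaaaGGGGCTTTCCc
Nfkb2, chr19:46305449-46305478 (plus strand): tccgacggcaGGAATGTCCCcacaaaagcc
Nfkb2, chr19:46305695-46305724 (plus strand): tggtattttcGGGACTTTCCtaagcagcac

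The match of *Nfkbia* began 29 bases before the start, and those of *Tnfaip3* began 125 and 12 bases before it. The capitals of *Tnip1* are a 12-base run of overlapping matches that began 58 bases before the start. *Nfkb2* has several annotated starts. Matches began 39 and 11 bases before the first of them, and the others began 236 and 225 bases before later starts. These letters were not found in the windows of *Rela*, *Birc3* and *Traf2*.

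The libraries held from 13755106 to 27040652 estimated counts, and all 10 members passed the filter on low counts. Levels are given as CPM, each library's counts relative to its TMM-scaled total, for replicates 1, 2 and 3 in turn. Differences are on the log2 scale from limma-voom with standard errors (SE), and adjusted p-values follow Benjamini-Hochberg over the 15598 genes tested, with a threshold of 0.05. On the third principal component, which carried 7.5% of the variance in log2 CPM, replicate 3 of both 4-week groups was distant from its group, at 62.9 against 6.7 and 5.9 in β-cells and at 32.7 against -17.5 and -56.4 in non-β-cells. Without both of these samples, 47 of the 50 member results kept their direction and their side of the threshold, and the other 3 are given below. The β-cell markers summed to 46270 to 81250 CPM at 4 weeks and 106900 to 112400 CPM at 8 weeks in the β fraction. Their sums in the non-β fraction were 2845 to 3976 CPM at 4 weeks and 4899 to 5811 CPM at 8 weeks. The ages did not overlap in either fraction. The 5 alpha-cell markers summed to 103600 to 133200 CPM in the non-β fraction. In the β fraction the alpha-cell sum ranged from 5435 to 9071 CPM at 4 weeks and from 1428 to 2464 CPM at 8 weeks.

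From 4 to 8 weeks, 4 of the 10 members rose in β-cells (*Nfkbia*, *Nfkbiz*, *Tnfaip3* and *Birc3*) and 1 fell (*Rela*). Of all genes tested, 8.59% were higher and 9.35% were lower at 8 weeks in this fraction. In non-β-cells 9 of the 10 members rose, against 11.6% of all genes, and none fell, against 4.8% of all genes. *Traf2* was the member that did not pass the test there. The median difference over the members, on the log2 scale, was 0.22 in β-cells (0.02 over all genes) and 1.64 in non-β-cells (0.01 over all genes).

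**Figure D1:**
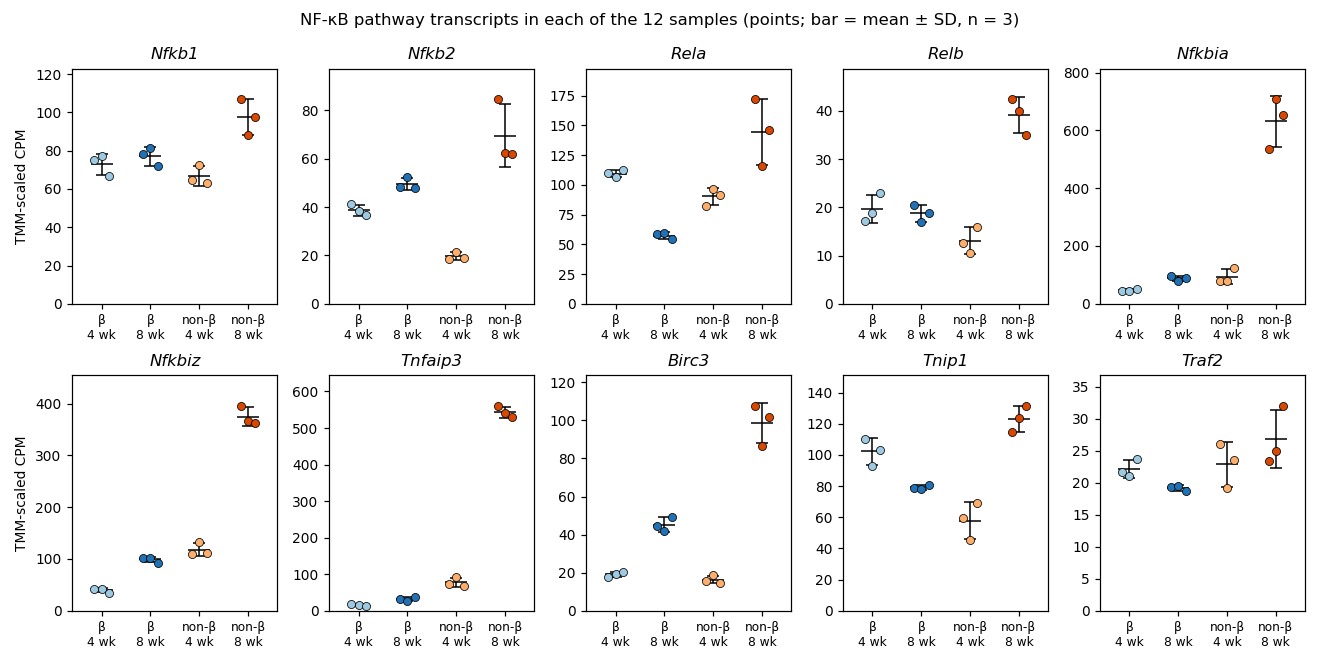
TMM-scaled CPM of each of the 10 members (vertical axes, each from 0) in the 12 samples, by cell fraction and age. Points are samples, and bars are means with SD over 3 replicates; *Nfkbia* and *Tnfaip3* reached 535.6 to 707.6 and 530.8 to 559.9 CPM in non-β-cells at 8 weeks, while *Rela* fell to 54.12 to 59.36 CPM in β-cells at 8 weeks.

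Among the subunits, *Rela* (ENSMUSG00000024927, chr19:5637483-5648130, GRCm38) encodes p65, which carries the main transactivation domain of the canonical dimer. In β-cells its level was 109.6, 106.4 and 112.4 CPM at 4 weeks and 58.74, 59.36 and 54.12 CPM at 8 weeks. The ages were far apart with little spread within either, and *Rela* fell by 0.93 (SE 0.13, adjusted p = 0.000382), a 1.91-fold decrease. In non-β-cells it was 82.47, 96.68 and 91.60 CPM at 4 weeks and 172.0, 116.2 and 145.9 CPM at 8 weeks. All 8-week samples lay above all 4-week samples, and the rise was 0.67 (SE 0.13, adjusted p = 0.00259).

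*Nfkb1* (chr3:135584655-135691547) encodes p105, the precursor of p50. Its level in β-cells was 74.91, 77.29 and 66.70 CPM at 4 weeks and 78.35, 81.41 and 71.77 CPM at 8 weeks. These ranges overlapped, and the difference of 0.08 had a 95% interval from -0.15 to 0.31 (adjusted p = 0.646). In non-β-cells it was 64.68, 72.61 and 63.25 CPM at 4 weeks and 106.9, 88.23 and 97.62 CPM at 8 weeks, without overlap. The rise there was 0.55 (SE 0.11, adjusted p = 0.00325). A gene model on the same strand, Gm43430, overlaps *Nfkb1*, but it was not found in the count table, so no level can be given for it.

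The non-canonical pair behaved differently between the fractions. *Nfkb2* (chr19:46304320-46312385), which encodes p100, was at 41.17, 38.25 and 36.74 CPM in 4-week β-cells and at 48.52, 52.57 and 47.74 CPM in 8-week β-cells. The ages did not overlap, but the difference of 0.36 (SE 0.13) missed the threshold (adjusted p = 0.0739). It passed in 2 of 17 fits, namely with sample quality weights (adjusted p = 0.0109) and with only the groups compared (adjusted p = 0.0468). In non-β-cells *Nfkb2* was at 18.67, 21.48 and 19.08 CPM at 4 weeks and at 84.62, 62.23 and 61.81 CPM at 8 weeks. That rise of 1.82 (SE 0.14, adjusted p = 3e-06), or 3.52-fold, had a 95% interval from 1.51 to 2.12, above those of *Rela* (0.40 to 0.95) and *Nfkb1* (0.32 to 0.78) in the same samples. The gene overlaps *Psd* on the opposite strand, whose group means ran from 47.6 to 88.2 CPM.

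*Relb* (chr7:19606217-19629438) encodes the partner of p52. In β-cells it was at 17.25, 18.83 and 22.94 CPM at 4 weeks and 20.49, 16.96 and 18.89 CPM at 8 weeks. The ranges overlapped and the difference was -0.07 (95% interval -0.42 to 0.28, adjusted p = 0.809). Its sign depended on the samples used, with 0.04 without both 4-week samples numbered 3 (adjusted p = 0.883). Non-β-cells held 12.66, 10.47 and 16.02 CPM at 4 weeks and 42.42, 40.04 and 34.99 CPM at 8 weeks. There *Relb* rose by 1.60 (SE 0.17, adjusted p = 2.64e-05), and no 8-week sample came near the 4-week range.

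The IκB family genes *Nfkbia* and *Nfkbiz* rose with age in both fractions. *Nfkbia* (ENSMUSG00000021025, chr12:55489410-55492647), which encodes IκBα and carries the promoter match shown above, was at 45.70, 45.94 and 52.75 CPM in 4-week β-cells and 95, 79.48 and 89.86 CPM in 8-week β-cells. The rise was 0.87 (SE 0.17, adjusted p = 0.00436), or 1.83-fold, with no overlap. The non-β samples held 78.65, 77.65 and 123.0 CPM at 4 weeks and 535.6, 707.6 and 651.5 CPM at 8 weeks. Replicate 3 at 4 weeks was the highest of its group, yet the 8-week samples were all several-fold above it. The rise of 2.79 (SE 0.17, adjusted p = 3.9e-07) was 6.91-fold, and it was 3.01 without both 4-week samples numbered 3.

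*Nfkbiz* (chr16:55811375-55838899) encodes IκBζ, an atypical nuclear IκB that acts as a co-activator for part of the NF-κB targets. It was at 42.75, 41.66 and 35.09 CPM in 4-week β-cells and at 102.6, 101.4 and 92.95 CPM in 8-week β-cells. With a rise of 1.32 (SE 0.11, adjusted p = 7.87e-06), or 2.49-fold, it and *Birc3*, described below, had the largest rises of the members in β-cells, within an SE of each other. Levels in non-β-cells were 110.3, 132.0 and 111.9 CPM at 4 weeks and 395.0, 366.9 and 363.0 CPM at 8 weeks. The rise of 1.67 (SE 0.10, adjusted p = 5.21e-07) was 3.19-fold, and neither fraction had overlapping ages.

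*Tnfaip3* (ENSMUSG00000019850, chr10:19000910-19015657) encodes A20, a ubiquitin-editing enzyme that terminates signalling from tumour necrosis factor and toll-like receptors. In β-cells it was a low transcript, at 18.78, 16.37 and 13.67 CPM at 4 weeks and 30.67, 27.89 and 37.27 CPM at 8 weeks. The ages did not overlap, and the rise was 0.98 (SE 0.17, adjusted p = 0.00185). The non-β fraction stood at 73.52, 92.13 and 66.95 CPM at 4 weeks and at 559.9, 539.9 and 530.8 CPM at 8 weeks. The 8-week samples were tightly grouped, and the rise of 2.82 (SE 0.13, adjusted p = 7.68e-08) was 7.08-fold, within an SE of that of *Nfkbia*.

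*Tnip1* (chr11:54910785-54962917) encodes ABIN1, a ubiquitin-binding partner of A20. Its level in β-cells was 110.5, 93.07 and 103.3 CPM at 4 weeks and 78.86, 77.82 and 80.96 CPM at 8 weeks. Every 8-week sample was lower, but the difference of -0.36 (SE 0.13) missed the threshold (adjusted p = 0.0749). It passed in 5 of 17 fits, among them the fit without both 4-week samples numbered 3 (adjusted p = 0.0367). In non-β-cells the level was 59.33, 45.16 and 68.82 CPM at 4 weeks and 114.8, 123.7 and 131.3 CPM at 8 weeks, a rise of 1.11 (SE 0.14, adjusted p = 9.54e-05).

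*Birc3* (chr9:7848699-7873186) encodes cIAP2, a ubiquitin ligase that works with TRAF2 at tumour necrosis factor receptors and helps to keep the non-canonical kinase NIK low. In β-cells it was at 17.51, 19.34 and 20.32 CPM at 4 weeks and at 44.59, 41.68 and 49.42 CPM at 8 weeks, a rise of 1.24 (SE 0.13, adjusted p = 5.13e-05) or 2.36-fold. In non-β-cells it was at 15.84, 18.69 and 14.64 CPM at 4 weeks and 107.5, 86.81 and 101.7 CPM at 8 weeks. The fractions overlapped at 4 weeks, while every 8-week sample was above all 4-week samples of either fraction. The rise in non-β-cells was 2.60 (SE 0.13, adjusted p = 1.61e-07), or 6.05-fold.

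*Traf2* (chr2:25517982-25546940) encodes the adaptor that recruits the cIAP ligases. It was at 21.63, 21.01 and 23.67 CPM in 4-week β-cells and 19.38, 19.52 and 18.69 CPM in 8-week β-cells. The ages did not overlap, but the difference of -0.20 (95% interval -0.52 to 0.12) did not pass the test (adjusted p = 0.392). Non-β samples had 26.01, 19.13 and 23.47 CPM at 4 weeks and 23.46, 24.95 and 31.96 CPM at 8 weeks, with overlapping ranges and a difference of 0.22 (95% interval -0.10 to 0.54, adjusted p = 0.374).

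**Figure D2:**
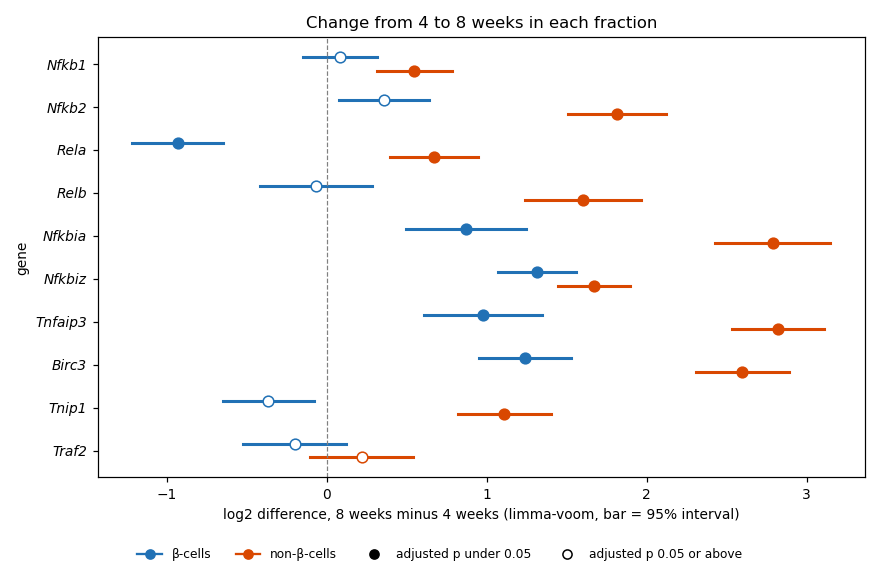
Log2 difference between 8 and 4 weeks (horizontal axis) for each member in β-cells (blue) and non-β-cells (orange), with 95% intervals from limma-voom; filled points passed the adjusted threshold. Most non-β points lie to the right of the β points, and *Rela* lies on opposite sides of 0, at -0.93 and 0.67.

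The age changes of the fractions were compared directly by the interaction term, in which the change of the non-β fraction is subtracted from that of the β fraction. It was negative and past the threshold for 7 of the 10 members, where 3.33% of all genes tested did so. *Nfkbia* differed by -1.92 (SE 0.24, adjusted p = 0.000518) and *Tnfaip3* by -1.85 (SE 0.22, adjusted p = 0.00029), both having risen in each fraction but less in β-cells. *Rela* moved in opposite directions, and its interaction was -1.60 (SE 0.18, adjusted p = 0.000248). The non-canonical subunits gave -1.46 for *Nfkb2* (adjusted p = 0.00075) and -1.67 for *Relb* (adjusted p = 0.00111), *Tnip1* gave -1.48 (adjusted p = 6e-04) and *Birc3* gave -1.36 (adjusted p = 0.00112).

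For the other 3 members the difference between age changes did not pass. *Nfkbiz* had an interaction of -0.35 with a 95% interval from -0.69 to -0.02 (adjusted p = 0.228). *Traf2* had an interaction of -0.42 (95% interval -0.87 to 0.04, adjusted p = 0.307). *Nfkb1* had one of -0.47 (adjusted p = 0.108), which was -0.51 and past the threshold without both 4-week samples numbered 3 (adjusted p = 0.0403), and also passed with the replicate number as a block (adjusted p = 0.0275).

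The comparison of the fractions at each age shows how the members were distributed between β-cells and the other sorted cells. At 4 weeks 3 members were higher in β-cells (*Nfkb2*, *Relb* and *Tnip1*), beside 24.9% of all genes, and 3 were lower (*Nfkbia*, *Nfkbiz* and *Tnfaip3*), beside 23.7% of all genes. *Nfkb2* was higher by 0.97 (SE 0.15, adjusted p = 0.000138), *Tnip1* by 0.84 (SE 0.14, adjusted p = 0.000251) and *Relb* by 0.61 (SE 0.18, adjusted p = 0.0123). *Tnfaip3* was 4.77-fold lower in β-cells (adjusted p = 2.24e-07), *Nfkbiz* 2.96-fold lower (adjusted p = 1.85e-07) and *Nfkbia* 1.89-fold lower (adjusted p = 0.000884). *Rela* did not overlap between the fractions, with a difference of 0.28 that missed the threshold (adjusted p = 0.084). It passed in 2 of 17 fits, the one with the replicate number as a block (adjusted p = 0.0316) and the one with sample quality weights (adjusted p = 0.0193).

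At 8 weeks all 10 members were lower in the β than in the non-β fraction, beside 25.6% of all genes tested. The difference was largest for *Tnfaip3*, at -4.10 (SE 0.14, adjusted p = 3.39e-10) or 17.1-fold, followed by *Nfkbia* at -2.84 (SE 0.17, adjusted p = 2.45e-08) or 7.14-fold. *Nfkbiz* differed by -1.92 (adjusted p = 1.36e-08), *Rela* by -1.32 (adjusted p = 3.11e-06), *Birc3* by -1.13 (adjusted p = 4.35e-06) and *Relb* by -1.06 (adjusted p = 8.18e-05). *Nfkb2*, *Relb* and *Tnip1*, which were higher in β-cells at 4 weeks, were thus lower at 8 weeks, *Nfkb2* by -0.48 (adjusted p = 0.00656) and *Tnip1* by -0.64 (adjusted p = 0.00146).

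For the smallest of these differences the calls depended on single samples, while the direction was kept in every fit. *Nfkb1* differed by -0.34 (adjusted p = 0.0179), which was -0.27 without β-cell replicate 3 at 8 weeks (adjusted p = 0.104) and -0.27 without non-β replicate 1 at 8 weeks (adjusted p = 0.0921). *Traf2* differed by -0.47 (adjusted p = 0.0196), which was -0.43 without β-cell replicate 3 at 8 weeks (adjusted p = 0.0726) and -0.34 without non-β replicate 3 at 8 weeks (adjusted p = 0.0932).

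**Figure D3:**
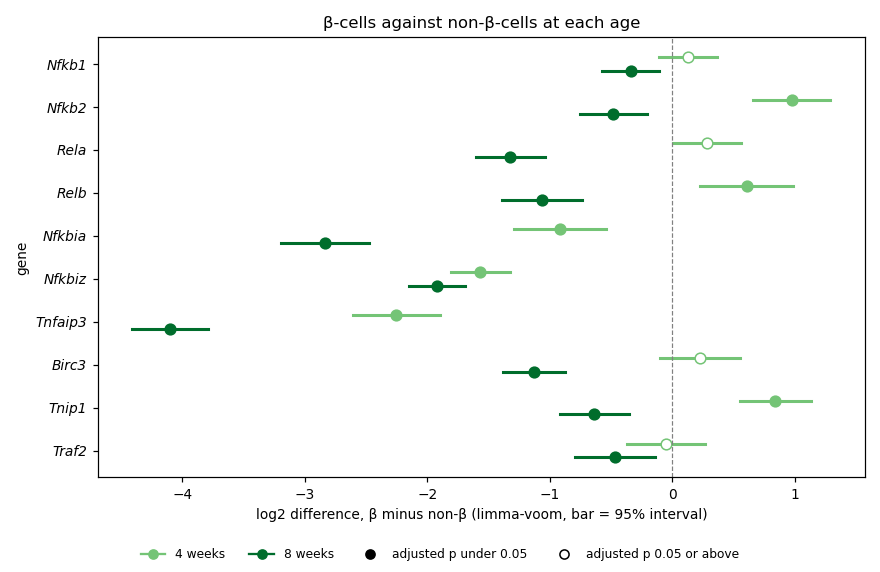
Log2 difference, β minus non-β (horizontal axis), for each member at 4 weeks (light green) and 8 weeks (dark green), with 95% intervals from limma-voom; filled points passed the adjusted threshold. All 10 members lie left of 0 at 8 weeks, from -0.34 for *Nfkb1* to -4.10 for *Tnfaip3*.

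To compare levels between genes, CPM was divided by the length in kilobases of each gene's longest annotated transcript. In 4-week β-cells *Rela* led at 40.3 ± 1.1 CPM per kb (SD, n = 3), followed by *Tnip1* at 34.4 ± 3.0 and *Nfkbia* at 30.5 ± 2.5, and *Tnfaip3* was last at 2.63 ± 0.41. In 8-week β-cells *Nfkbia* was first at 55.8 ± 5.0 CPM per kb, while *Rela* was at 21.1 ± 1.1, between *Nfkbiz* at 24.1 ± 1.3 and *Nfkb1* at 18.6 ± 1.2. In 8-week non-β-cells *Nfkbia* reached 400.2 ± 55.6 CPM per kb, and *Nfkbiz* at 91.1 ± 4.2 and *Tnfaip3* at 87.7 ± 2.4 followed, the latter pair differing by less than their spread. *Traf2* was the lowest in that group, at 6.51 ± 1.10.

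Ratios within a sample describe the same shift without scaling between libraries. The CPM of *Nfkbia* over that of *Rela* was 0.439 ± 0.027 in 4-week β-cells and 1.54 ± 0.17 in 8-week β-cells (SD, n = 3). In non-β-cells it was 1.03 ± 0.28 at 4 weeks and 4.56 ± 1.49 at 8 weeks. The ages did not overlap in either fraction. The ratio of *Nfkb2* to *Nfkb1* was 0.532 ± 0.032 and 0.643 ± 0.023 in β-cells and 0.296 ± 0.007 and 0.710 ± 0.080 in non-β-cells, at 4 and 8 weeks in turn.

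Markers of other cell types moved with age in the same samples. All 10 endothelial and all 9 mesenchymal markers rose in non-β-cells, as did 4 of 6 duct and 3 of 7 acinar markers. The endothelial sum ranged from 55.5 to 100 CPM at 4 weeks and was 1128, 423.5 and 615.7 CPM at 8 weeks, and the mesenchymal sum ranged from 107 to 308 CPM and from 697 to 1086 CPM. Over the 8-week non-β replicates, *Rela*, *Nfkb1* and *Birc3* were in the order of the endothelial sum, with replicate 1 highest and replicate 2 lowest. *Nfkbia*, highest in replicate 2 and lowest in replicate 1, was in the opposite order. *Nfkb2*, *Relb*, *Nfkbiz* and *Tnfaip3* fell from replicate 1 to 3, as did the acinar sum, at 788.2, 220.8 and 198.6 CPM. At 4 weeks that sum ranged from 34.2 to 92.7 CPM in non-β-cells. *Tnip1* and *Traf2* rose from replicate 1 to 3, as did the mesenchymal sum. An order of 3 samples is too short to decide on a relation. In bulk samples, a change in the share of cells of a type and a change in RNA per cell cannot be told apart, and the part of these markers in the rise of the members was not tested. In β-cells no endothelial and 1 mesenchymal marker passed the test, and the endothelial sum ranged from 7.89 to 17 CPM at 4 weeks and from 15 to 18.1 CPM at 8 weeks. The mesenchymal sum ranged from 4.36 to 15.7 CPM at 4 weeks and from 26.6 to 54.7 CPM at 8 weeks in β-cells, without overlap, and all 9 of its markers had a positive difference, with a median of 1.64. In the same fraction 4 of 7 acinar markers rose, with sums of 94.6 to 196.5 CPM at 4 weeks and 445.7 to 920.4 CPM at 8 weeks, and all 5 alpha-cell markers fell.

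The 18 leukocyte markers summed to 52.5 to 53.5 CPM at 4 weeks and 70.8 to 78.1 CPM at 8 weeks in β-cells, and to 8.86 to 13.8 and 16.2 to 21.6 CPM in non-β-cells, without overlap between ages. Between 5 and 13 of them were at 0 in each library. Most of the sum was *Cd68*, a lysosomal gene used as a macrophage marker, which rose with age in β-cells from a mean of 48.8 to 69.6 CPM (adjusted p = 0.0136) and in non-β-cells from 9.15 to 16.5 CPM (adjusted p = 0.0106). *Ptprc*, which encodes CD45, averaged 0.0132 and 0 CPM in β-cells and 0.454 and 0.0433 CPM in non-β-cells, at 4 and 8 weeks in turn. Immediate early genes such as *Fos* and *Egr1*, which respond to handling and other stimuli within minutes, differed strongly by fraction. All 17 of them were lower in β-cells at both ages, with sums of 1649 to 3006 CPM in β-cells and 21250 to 25040 CPM in non-β-cells. With age, 8 of the 17 rose and 4 fell in β-cells, where the sum went from 1649 to 1980 CPM at 4 weeks to 2495 to 3006 CPM at 8 weeks. In non-β-cells the sums of the ages overlapped, and 2 of the 17 rose and 1 fell. The part of these and of the β-cell, alpha-cell, acinar, mesenchymal and leukocyte markers in the members' differences was not tested.

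**Figure D4:**
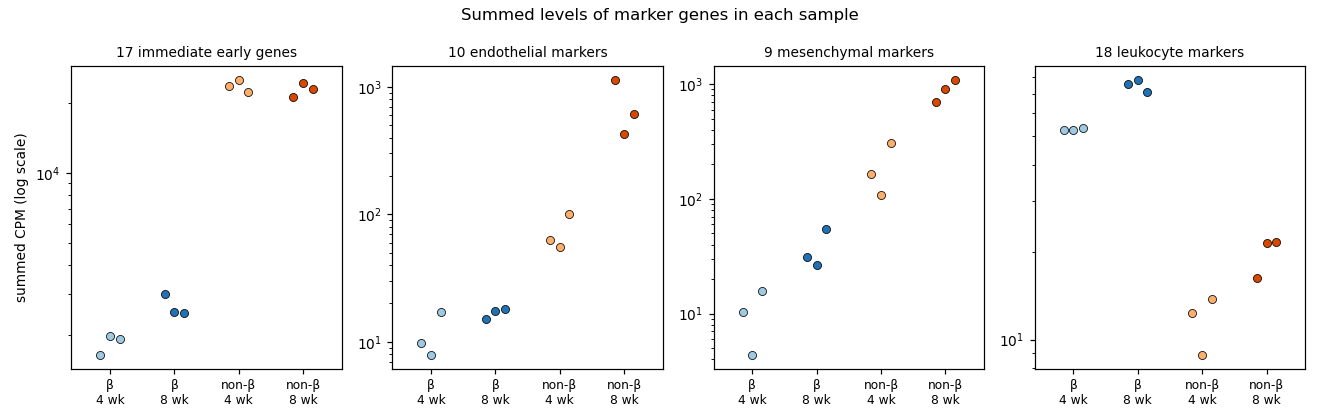
Summed CPM (log axes) of immediate early genes and of endothelial, mesenchymal and leukocyte markers in each of the 12 samples, by fraction and age. Endothelial and mesenchymal sums were highest in non-β-cells at 8 weeks, at 423.5 to 1128 and 697 to 1086 CPM, while immediate early sums separated the fractions and overlapped between ages in non-β-cells.

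The remaining genes of the pathway were read from lists by role. Their counts are read against the shares of all genes given above, 8.59% higher and 9.35% lower in β-cells and 11.6% higher and 4.8% lower in non-β-cells. Of 14 tested receptor genes, 2 rose and 1 fell in β-cells, which is near those shares, and 6 rose in non-β-cells. *Tnfrsf12a*, which encodes the receptor of the cytokine TWEAK, fell in β-cells from 415.0 ± 52.5 to 53.3 ± 5.4 CPM (SD, n = 3), a log2 difference of -2.96 (SE 0.15, adjusted p = 9.23e-08). *Cd40*, a receptor of the non-canonical branch, rose in non-β-cells by 2.73 (SE 0.41, adjusted p = 0.000413) and in β-cells by 0.88 (adjusted p = 0.00772). *Il1rl1* rose by 4.73 and *Tnfrsf1b* by 1.78 in non-β-cells. *Tlr3*, a sensor of double-stranded RNA, rose in β-cells by 1.08 (adjusted p = 0.0352), a call that was lost under 8 of its alternatives, including the omission of any 1 of the 6 β-cell samples.

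Of 27 adaptors and kinases, 3 rose and 3 fell in β-cells, near the shares of all genes, and 7 rose and none fell in non-β-cells. *Ikbke*, a non-canonical IκB kinase, rose in β-cells by 1.34 (SE 0.19, adjusted p = 0.000368) and in non-β-cells by 0.92 (adjusted p = 0.00232). In non-β-cells *Map3k8* rose by 1.72 and *Map3k14*, which encodes NIK, by 1.04 (SE 0.12, adjusted p = 6.98e-05). *Irak2* rose in non-β-cells by 1.08 (adjusted p = 0.00642) and fell in β-cells by 0.84 (adjusted p = 0.00679). *Traf1* had counts of 9, 0 and 3 at 4 weeks and 48, 20 and 56 at 8 weeks in non-β-cells. It was above 1 CPM only in those 8-week samples, so the filter kept it for being high there. It passed with limma-voom (adjusted p = 0.0111) but not with DESeq2 (adjusted p = 0.0629) or edgeR (adjusted p = 0.0905).

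Of 19 ubiquitin and feedback genes, 3 rose and 2 fell in β-cells and 2 rose in non-β-cells with the latter 2 counts near the shares of all genes. *Zc3h12a*, which encodes the mRNA-degrading enzyme regnase-1, rose in both, by 2.06 in β-cells (SE 0.23, adjusted p = 6.15e-05) and by 2.57 in non-β-cells (SE 0.18, adjusted p = 1.11e-06). *Nlrc5*, best known as an activator of MHC class I genes, also rose in both, by 1.86 in β-cells (adjusted p = 0.00177) and by 0.85 in non-β-cells (adjusted p = 0.0165). *Usp18*, a brake on interferon signalling, had a rise of 1.00 in β-cells (adjusted p = 0.00568), and its difference in non-β-cells was 0.45 (adjusted p = 0.196). Of 7 further REL and IκB genes, 1 rose and 2 fell in β-cells and 4 rose in non-β-cells. *Bcl3*, an atypical IκB, rose in both, by 1.06 (SE 0.09, adjusted p = 1.17e-05) and by 1.23 (SE 0.10, adjusted p = 2.9e-06), whereas *Nfkbie* rose by 2.32, *Rel* by 2.20 and *Nfkbid* by 1.53 in non-β-cells.

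Of 49 listed target genes, 39 passed the filter and were tested. Of these, 15 rose and 4 fell in β-cells with a median log2 difference of 0.94. In non-β-cells 33 rose and 1 fell, with a median of 3.13. Some targets, among them *Tnf*, *Cxcl9*, *Sele* and *Il33*, were above 1 CPM only in 8-week non-β samples. The filter kept them for being high there, so their rises, and that count and median, are not independent of it. Over the 39 tested targets, the interaction was negative and past the threshold for 12 and positive and past it for none. Among all genes tested, 3.33% were past it in the negative and 1.8% in the positive direction. A negative interaction past the threshold was also found for 3 of 14 receptors, 3 of 27 adaptors or kinases and 3 of 7 REL and IκB genes. None of the 19 ubiquitin and feedback genes had one. *Lcn2*, which encodes an iron-scavenging acute phase protein, went from 4.94 ± 2.59 to 98.8 ± 2.0 CPM in β-cells and from 3.51 ± 1.51 to 150.4 ± 22.4 CPM in non-β-cells (SD, n = 3). *C3*, the central complement component, rose by 3.04 (SE 0.41, adjusted p = 0.000305) in β-cells and by 4.54 (SE 0.23, adjusted p = 1.13e-07) in non-β-cells. *Ier3* rose by 2.79 (SE 0.30, adjusted p = 4.7e-05) in β-cells and by 3.21 (adjusted p = 3.06e-06) in non-β-cells. *Fas*, the death receptor, fell by 2.50 in β-cells (SE 0.47, adjusted p = 0.00283), whereas non-β-cells showed a rise of 1.32 (SE 0.38, adjusted p = 0.03).

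Some targets were close to 0 at 4 weeks and are given as counts. In non-β-cells *Tnf* had 1, 0 and 1 counts at 4 weeks and 176, 70 and 94 at 8 weeks (adjusted p = 0.000368), and *Cxcl9* had none at 4 weeks and 53, 67 and 91 at 8 weeks (adjusted p = 8e-04). Set against a floor of 3 counts over the 4-week group, *Cxcl9* was 84-fold higher at 8 weeks. With the spread of replicates included, limma-voom gave *Cxcl9* in non-β-cells a log2 rise of 7.30 (SE 1.18), with a lower confidence limit of 4.75. Both *Tnf* and *Cxcl9* passed the filter only through these 8-week samples, so their adjusted p-values are not independent of it. *Mmp9* went from 0, 0 and 11 counts to 264, 356 and 817 (adjusted p = 0.046), and *Nos2*, the inducible nitric oxide synthase, from 0, 0 and 5 to 81, 102 and 228 (adjusted p = 0.0238). The *Mmp9* call was lost without any 1 of the 4-week samples or without 8-week replicate 2, and the *Nos2* call without 4-week replicate 1 or 2. In β-cells *Nos2* had 17, 34 and 5 counts at 4 weeks and 113, 215 and 179 at 8 weeks (adjusted p = 0.0169), and *Ptgs2*, which encodes cyclooxygenase-2, had 24, 22 and 8 and then 114, 96 and 196 (adjusted p = 0.0171). Without 4-week replicate 1 the *Nos2* call in β-cells was lost (adjusted p = 0.0546), and without replicate 2 or 3 that of *Ptgs2* (adjusted p = 0.0603 and 0.0642).

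**Figure D5:**
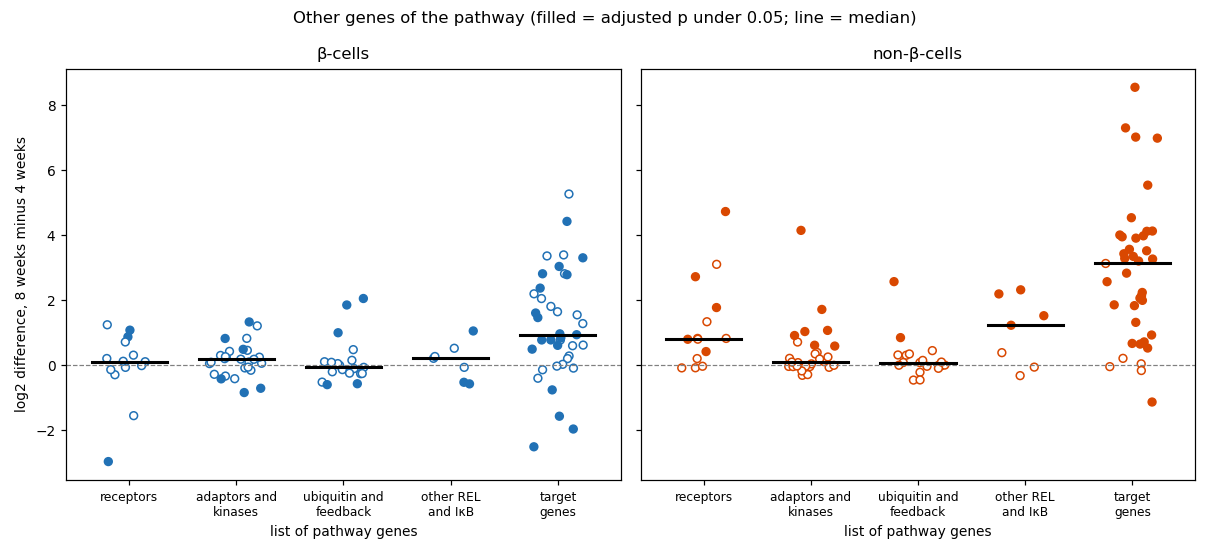
Log2 difference between 8 and 4 weeks (vertical axis) of the other tested pathway genes, by list, in β-cells (left) and non-β-cells (right). Each point is a gene that passed the filter, filled where the adjusted threshold was passed. Black lines are medians, and the targets' median was 0.94 (β-cells) and 3.13 (non-β-cells).

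The genes whose levels followed a member most closely were found by the root mean square difference of log2 CPM over the 12 samples, each gene centred on its mean. For *Nfkbia* they were *Irf1* at 0.22, AC160336.1 at 0.30 and *Cxcl10* at 0.32. *Irf1*, a transcription factor of the interferon response, was at 40.1 ± 0.5 and 72.2 ± 3.0 CPM in β-cells and 74.5 ± 9.0 and 440.6 ± 17.9 CPM in non-β-cells, at 4 and 8 weeks in turn (SD, n = 3). The nearest genes of *Nfkb2* were *Unc5b* at 0.25, *Inava* at 0.26 and *Crlf2* at 0.31, and those of *Birc3* were *H2-Q6* at 0.33, *Csf1* at 0.33 and *Bcl6b* at 0.36. Among the members themselves *Nfkb1* and *Traf2* were closest, at 0.26, followed by *Relb* and *Tnip1* at 0.30, and *Tnfaip3* and *Tnip1* were farthest apart, at 1.83. Counts of *H2-Q6* may be divided among its near-identical H2-Q neighbours.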

How the data were processed

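RNA of 12 sorted islet samples was sequenced from strand-specific total RNA libraries. The authors, in the study's methods, used fastp for trimming, kallisto with the Ensembl release 98 transcripts (GRCm38) for quantification and tximport for the sums per gene. Versions are not given in the sources used here. The authors deposited estimated counts per gene without scaling or filtering, and 14.0% to 19.3% of a sample's values were not whole numbers. Reads shared by near-identical genes are divided by estimation. Library totals bound the counting error, and the errors given are from replicates.

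Counts were rounded. Symbols and coordinates came from GENCODE M21 (GRCm38), which matched 51916 of 52962 identifiers. Genes with a CPM above 1 in at least 3 samples were kept, scaled by TMM (edgeR 4.0.16) and tested with limma-voom in R 4.3.3 (limma 3.58.1), two-sided, by fitting 1 mean per group to the 12 samples together, without covariates. Log2 CPM used a prior count of 2. Groups came from the sample titles. Ages were compared within fractions, fractions within ages, and the age changes by their interaction. The members, lists and tests were chosen with earlier results of these data known. Other pathway genes were named where the adjusted p was under 0.05 and the log2 age change at least 1 in size, at most 6 per list and fraction, and nearest genes were sought for *Nfkbia*, *Nfkb2* and *Birc3*; a few further genes were named for their role. Alternatives were the quasi-likelihood test of edgeR, DESeq2 1.42.0 and its size factors, total counts, TMM without hormone and mitochondrial genes, no filter, a filter of 10 counts in 6 samples, sample quality weights, only the groups compared, the replicate number as a block, omission of both 4-week samples numbered 3, and omission of each sample in turn. The model was tested on simulated counts.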

Additional observations from a re-analysis of the deposited data

Results flagged for a closer look

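For 7 of the 10 members the age change in β-cells differed from that in non-β-cells by a test of the difference itself, the interaction term in limma-voom adjusted over all genes tested. The log2 interaction was -1.92 for *Nfkbia*, -1.85 for *Tnfaip3*, -1.67 for *Relb*, -1.60 for *Rela*, -1.48 for *Tnip1*, -1.46 for *Nfkb2* and -1.36 for *Birc3*. Each of the 7 passed the threshold in all 22 fits. Among all genes tested, 3.33% passed with a negative interaction in the main fit. *Rela* alone among them moved in opposite directions with both age changes past the threshold. Endothelial and mesenchymal markers rose with age in the same non-β samples, and their part in these differences was not tested.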

How the results depend on the processing

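Over 900 repeats of the 50 member results, 875 kept direction and side of the threshold, 15 gained a call, 5 lost one and 5 turned sign. The sign turned only for differences near 0: *Relb* with age in β-cells, at 0.0419 with sample quality weights, 0.0393 without both 4-week samples numbered 3 and -0.17 to 0.0414 when each sample was left out in turn, and *Traf2* between fractions at 4 weeks, at -0.16 to 0.0685 in the latter fits. Of the calls lost, *Traf2* at 8 weeks was also lost with no filter (-0.46, adjusted p = 0.0518). The number of members called stayed within 1.5 times the main number in each comparison. Sample quality weights raised the calls over all genes from 2799 to 5382 for age in β-cells and from 800 to 2384 for the interaction, which the block raised to 2042 and DESeq2 to 1562. Without a filter the median of all genes lay at 0.21 for age in non-β-cells, -0.23 between fractions at 8 weeks and -0.11 for the interaction. The cause was not tested.

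Equal replicate numbers are not stated to mark a shared preparation. The deviations of a β sample and the non-β sample of the same number correlated at 0.08, 0.13 and 0.31 at 4 weeks and 0.02, 0.05 and 0.01 at 8 weeks across all tested genes. Among genes with a mean log2 CPM of at least 3, they correlated at 0.29, 0.43 and 0.67 at 4 weeks, each above 0.1, and at 0.12, 0.16 and -0.07 at 8 weeks. The fit without the block was kept, and whether the 4-week numbers pair samples is not settled by this check. With a block of equal numbers within an age, 7 and 10 members were called between fractions at 4 and 8 weeks, and 8 for the interaction. The calls gained were *Rela* at 4 weeks (0.28, adjusted p = 0.0316) and the interaction of *Nfkb1* (-0.47, adjusted p = 0.0275). For the age changes the block joined equal numbers across ages within a fraction, so it does not model a preparation shared by the fractions. Across ages, such samples correlated at 0.03, 0.02 and -0.01 in β-cells and at 0.1, 0 and 0.12 in non-β-cells over all tested genes. With that block, 5 and 9 members were called for age in β-cells and non-β-cells.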
